A study of Homo sapiens with 9 samples.

Results

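The antioxidant programme controlled by NRF2 and the second oxidative step of the pentose phosphate pathway were followed in BCKDK knockout lung cancer cells through 9 genes, matched by symbol among the 58735 genes of the deposited table. The 9 were NFE2L2, which encodes NRF2, its inhibitor KEAP1, the targets NQO1, HMOX1, GCLC, GCLM, TXNRD1 and SRXN1, and PGD, the 6-phosphogluconate dehydrogenase. All 9 were found once and all 9 passed the filter on low values. They did not move as one block: TXNRD1 was higher in the knockout line KO2, GCLM and NQO1 were higher in the knockout line KO1, GCLC was lower in both, HMOX1 was lower in KO1, and NFE2L2, KEAP1, SRXN1 and PGD did not pass the test in any comparison. The calls of GCLC, HMOX1 and NQO1 were each lost in some alternative settings given below, those of GCLM and TXNRD1 in none.

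RNA was measured by sequencing in 9 libraries of H1299, an established human lung cancer cell line, with 3 libraries in each of 3 groups. KO2 and KO1 are monoclonal lines with the genotype BCKDK knockout, made by CRISPR editing and limiting dilution. Vector is H1299 transduced with the lentiCRISPR v2 plasmid by lentivirus, with the genotype given as wild type. BCKDK is the kinase that inhibits the branched-chain ketoacid dehydrogenase. Each knockout line is 1 clone, and only these lines are given as monoclonal, so editing of BCKDK and the choice of a clone cannot be told apart. Whether a group's libraries derive from separate cultures is not stated in the labels. The p-values therefore rest on the spread between libraries, which may be technical only.

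In unstressed cells KEAP1 holds NRF2 in the cytoplasm and, as the adaptor of a CUL3 ubiquitin ligase, directs it to the proteasome. When cysteines of KEAP1 are modified by oxidants or electrophiles, NRF2 accumulates, pairs with a small MAF protein and binds antioxidant response elements, so its activity is set mainly by protein turnover and not by the level of its messenger RNA. Its targets build glutathione, reduce thioredoxin, detoxify quinones and haem, and supply the NADPH on which these reactions run, for which the oxidative branch of the pentose phosphate pathway is a main source.

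As sequence context, RefSeq promoter windows (build GRCh38.p14, 250 bases before to 50 after a start) were searched on both strands for the core of the antioxidant response element, TGACNNNGC, and for the same letters followed by A. Windows were found for 8 of the 9 genes, HMOX1 being the exception, 11 windows in all. The core with the final A was in 3.18% of all 35116 human windows and in 3 of the 11, at 1 start each of GCLM, TXNRD1 and KEAP1. These 3 windows are printed because they hold this match. Of their genes, GCLM and TXNRD1 carry the widest differences between the lines while KEAP1 passed no test. GCLC and NQO1, which were also called, had no match of either form in their windows. A link between matches and differences was not tested. The matches lie on the opposite strand, so the capitals show the element in reverse complement. A match describes the letters and is not a measured binding site. Bases outside these windows were not searched, so a gene without a match here may still hold an element.
GCLM, chr1:93909381-93909680, minus strand, match from 35 bases before the start: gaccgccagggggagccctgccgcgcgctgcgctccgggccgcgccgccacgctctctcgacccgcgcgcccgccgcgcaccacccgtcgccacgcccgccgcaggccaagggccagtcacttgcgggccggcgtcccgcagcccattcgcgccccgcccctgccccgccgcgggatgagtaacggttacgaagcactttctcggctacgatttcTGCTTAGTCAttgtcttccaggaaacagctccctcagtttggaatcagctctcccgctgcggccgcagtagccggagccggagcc
TXNRD1, second start, chr12:104286782-104287081, plus strand, match from 103 bases before the start: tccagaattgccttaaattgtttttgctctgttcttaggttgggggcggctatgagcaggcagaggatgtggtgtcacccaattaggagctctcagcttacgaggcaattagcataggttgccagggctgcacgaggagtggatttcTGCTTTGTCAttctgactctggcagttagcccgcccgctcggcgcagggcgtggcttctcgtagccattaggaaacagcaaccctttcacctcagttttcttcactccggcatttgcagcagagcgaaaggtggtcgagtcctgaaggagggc
KEAP1, second start, chr19:10502722-10503021, minus strand, match from 32 bases before the start: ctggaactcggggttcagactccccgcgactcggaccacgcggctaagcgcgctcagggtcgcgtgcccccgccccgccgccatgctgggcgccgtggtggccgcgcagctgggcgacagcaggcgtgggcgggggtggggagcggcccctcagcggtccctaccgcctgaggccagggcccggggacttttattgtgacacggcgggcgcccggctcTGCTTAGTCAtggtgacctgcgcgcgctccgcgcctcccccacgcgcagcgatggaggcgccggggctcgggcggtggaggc
The element of GCLM and that of KEAP1 are the same 10 letters, and the one of TXNRD1 differs within the unspecified positions. The core alone, in 13.4% of all windows, was also found in the first TXNRD1 window and in that of PGD.

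The edited gene was checked first. BCKDK had 0.628, 0.576 and 0.287 FPKM (fragments scaled to exon length and library size) in the KO2 libraries, 1.91, 2.06 and 1.67 FPKM in the KO1 libraries and 13.7, 12.9 and 17.5 FPKM in the Vector libraries. It fell by 3.39 on the log2 scale in KO2 against Vector (limma adjusted p = 1e-06) and fell by 2.44 in KO1 against Vector (limma adjusted p = 3.63e-06). Recovered depth was 16002212 to 17090445 reads per library. Vector library 3 and KO2 library 3 stood apart from their groups, with root-mean-square log2 distances of 0.445 and 0.426, against 0.244 to 0.323 in the other 7, and in Vector library 3 the deviation followed the GC content of the gene (Spearman rho 0.764 over 16418 genes, a description). Of the 6 epithelial markers CDH1 and KRT19 were under 0.1 FPKM in every library, and the 6 summed to 102 to 121 FPKM in KO2, 426 to 490 FPKM in KO1 and 66.8 to 91.9 FPKM in Vector, nearly all of it KRT8 and KRT18. The 5 mesenchymal markers summed to 519 to 718 FPKM in KO2, 626 to 650 FPKM in KO1 and 617 to 839 FPKM in Vector, mostly VIM, and among them FN1 averaged 57.2 ± 9.85 FPKM in KO2, 28.9 ± 1.06 FPKM in KO1 and 5.80 ± 0.750 FPKM in Vector (SD, n = 3 each). The 4 neuroendocrine markers summed to 1.49 to 2.23 FPKM in KO2, 0.446 to 0.478 FPKM in KO1 and 1.54 to 2.72 FPKM in Vector. The part of these marker differences in the results below was not tested. The 5 lung adenocarcinoma and alveolar markers summed to 0.0949 to 0.563 FPKM, with NKX2-1 and 3 surfactant genes under 0.1 FPKM throughout, although the labels call the cells lung adenocarcinoma. Immune and endothelial markers summed to at most 0.375 and 0.106 FPKM.

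**Figure D1:**
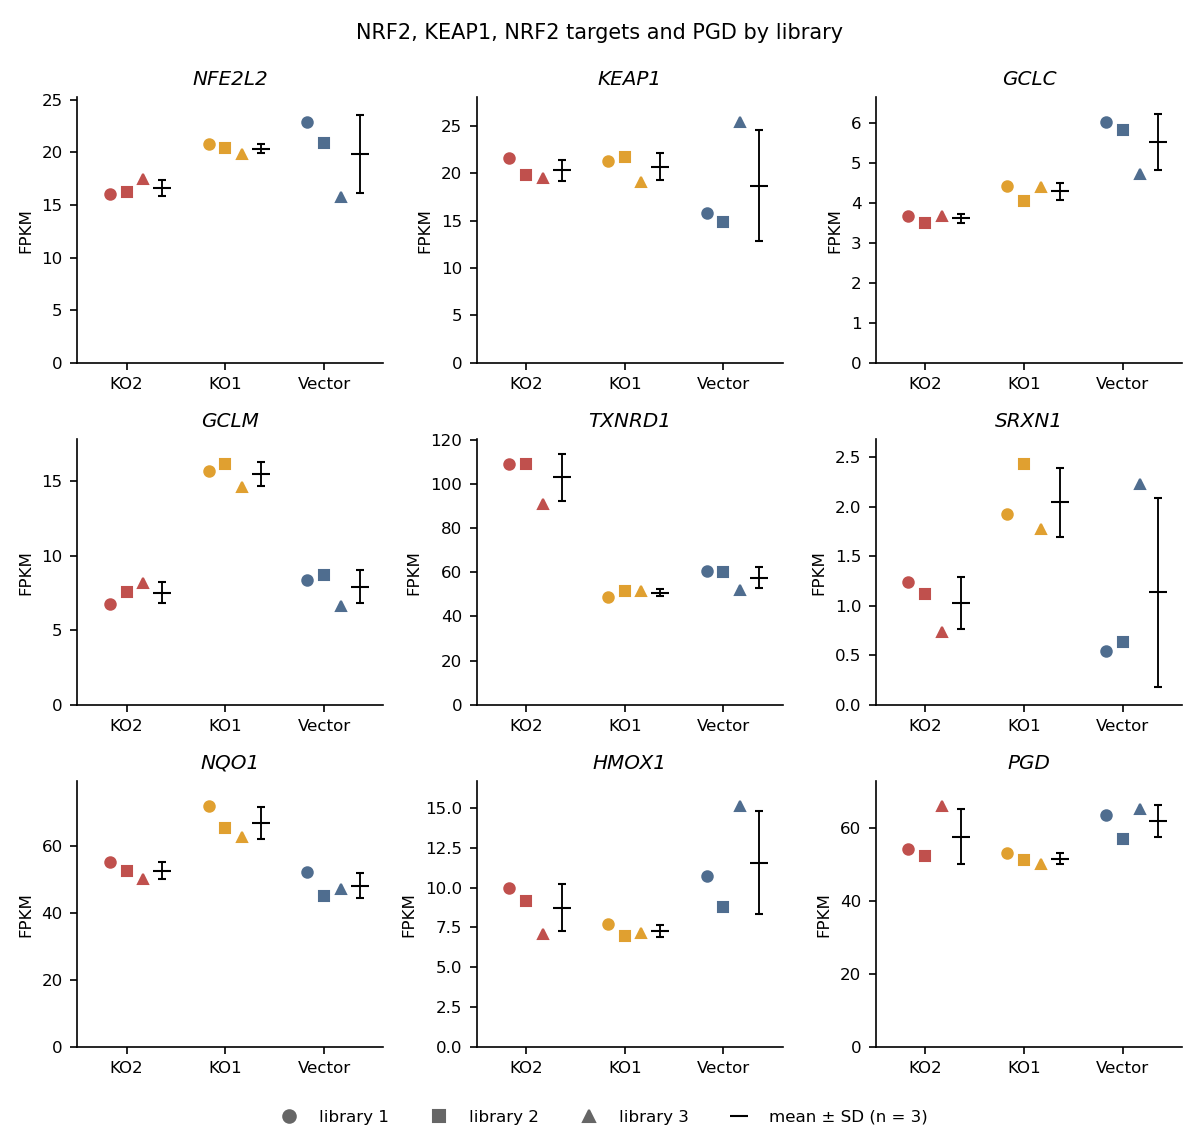
FPKM of each of the 9 genes (vertical axis, from 0) in the 3 libraries of KO2, KO1 and Vector, with the mean and SD beside the points (n = 3). TXNRD1 is high in all KO2 libraries and GCLM in all KO1 libraries, while Vector library 3 (triangle) sits away from the other Vector libraries for NFE2L2, KEAP1, SRXN1 and HMOX1.

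Differences were tested with limma on log2(FPKM + 1) over 16426 genes, those averaging 0.5 FPKM or more, with Benjamini-Hochberg adjustment, and a gene was called at an adjusted p under 0.05. In KO2 against Vector, 1 of the 9 genes was called higher and 1 lower, where 27.9% of all genes were called, 12.9% higher and 15% lower. In KO1 against Vector, 2 were higher and 2 lower, where 34.1% of all genes were called, 17.4% higher and 16.7% lower. In KO2 against KO1, 1 was higher and 2 were lower, where 30.9% of all genes were called, 14.5% higher and 16.4% lower. The share of these genes that was called was therefore near that of all genes in each comparison. With every library scaled to the same total FPKM, the calls over all genes were 2099 higher and 3244 lower in KO1 against Vector, beside 2865 and 2744 here, and 2903 higher and 1837 lower in KO2 against KO1, beside 2386 and 2693 here. The median log2 difference of the 9 genes was -0.06 in KO2 against Vector, 0.05 in KO1 against Vector and -0.20 in KO2 against KO1, beside medians over all genes of -0.0049, 0.0083 and -0.0173. The 2 comparisons with Vector share the Vector libraries. In bulk RNA, fewer cells of a kind and less RNA per cell cannot be told apart.

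**Figure D2:**
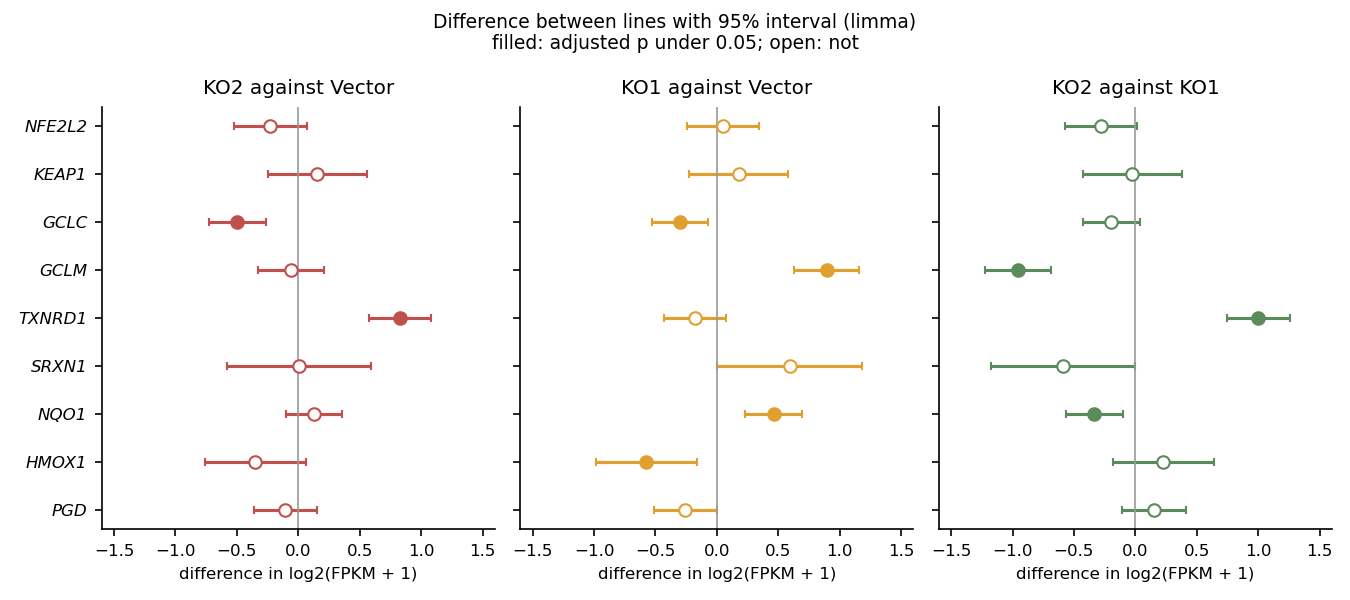
Difference in log2(FPKM + 1) with its 95% interval (horizontal axis) for each gene in KO2 against Vector, KO1 against Vector and KO2 against KO1. Filled points have an adjusted p under 0.05. The intervals of GCLM and TXNRD1 lie clear of 0 in 2 of the 3 comparisons each, on opposite sides in KO2 against KO1.

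NFE2L2 (minus strand of chromosome 2, hg38 177227595 to 177392697) had 16.1, 16.3 and 17.4 FPKM in KO2, 20.8, 20.4 and 19.9 FPKM in KO1 and 22.9, 20.9 and 15.8 FPKM in Vector. The KO2 libraries lay below all KO1 libraries, and Vector library 3 lay below all the others, so KO2 and Vector overlapped. The log2 difference was -0.23 in KO2 against Vector (limma adjusted p = 0.226), 0.05 in KO1 against Vector (limma adjusted p = 0.798) and -0.28 in KO2 against KO1 (limma adjusted p = 0.138). Without Vector library 3 the difference was -0.38 in KO2 against Vector (limma adjusted p = 0.0047) and -0.28 in KO2 against KO1 (limma adjusted p = 0.0104), and both were then called. Of the 5979 exon bases of NFE2L2, 20.9% are shared with other genes.

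KEAP1 (minus strand of chromosome 19, 10486120 to 10503741) had 21.6, 19.9 and 19.5 FPKM in KO2, 21.3, 21.7 and 19.1 FPKM in KO1 and 15.8, 14.8 and 25.5 FPKM in Vector. The value of Vector library 3 was the highest of the 9 and those of Vector libraries 1 and 2 were the lowest. The log2 difference was 0.15 in KO2 against Vector (limma adjusted p = 0.564) and 0.18 in KO1 against Vector (limma adjusted p = 0.481). Without Vector library 3 it was 0.39 (limma adjusted p = 0.0081) in KO2 and 0.41 (limma adjusted p = 0.0053) in KO1, both called. With the trend of each library on GC content and length removed, an alternative chosen after seeing the data, it was 0.07 in KO2 (limma adjusted p = 0.523) and 0.03 in KO1 (limma adjusted p = 0.769). KEAP1 has the highest GC content of the 9 genes, 60.3%, and KO2 and KO1 differed by -0.02 on the log2 scale (limma adjusted p = 0.936, 95% interval -0.43 to 0.38).

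Of the 9 partners and controllers of NRF2, 0 were higher and 1 was lower in KO2 against Vector, 3 were higher and 0 lower in KO1 against Vector, and 0 were higher and 3 lower in KO2 against KO1. Beside this list and those below, the shares of all genes called were 27.9%, 34.1% and 30.9% in the same order. The 3 higher in KO1 were MAFF, MAFG and MAFK, the small MAF proteins, the DNA-binding partners that NRF2 needs and that, lacking an activation domain, can also occupy its sites without it. MAFG had 14.1, 13.3 and 10.1 FPKM in KO2, 41.9, 41.4 and 40.9 FPKM in KO1 and 14.5, 13.2 and 20.7 FPKM in Vector, and rose in KO1 by 1.33 on the log2 scale against Vector (limma adjusted p = 0.000404). MAFF had 4.38, 4.25 and 3.37 FPKM in KO2, 10.8, 10.6 and 9.68 FPKM in KO1 and 4.40, 3.90 and 6.41 FPKM in Vector, a rise of 0.96 in KO1. All KO1 libraries lay above the others for both genes. MAFK had 19.0, 17.4 and 10.3 FPKM in KO2, 21.5, 20.0 and 19.8 FPKM in KO1 and 7.44, 7.09 and 16.0 FPKM in Vector, a rise of 1.03 (limma adjusted p = 0.0243), which was called in 13 of 22 alternative settings. It was lost on leaving out Vector library 1, Vector library 2 or any 1 KO1 library, with limma adjusted p values up to 0.087, without Vector library 2. MAFG and MAFF were called in KO1 against Vector in 22 of 22.

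SQSTM1, the autophagy adaptor p62 that can sequester KEAP1, was the gene lower in KO2. It had 53.0, 48.5 and 45.8 FPKM in KO2, 86.2, 81.0 and 75.8 FPKM in KO1 and 75.3, 68.1 and 103 FPKM in Vector. The KO2 libraries lay below all others, and SQSTM1 fell by 0.71 on the log2 scale in KO2 against Vector (limma adjusted p = 0.0084). Other genes share 22.04% of its exon bases. The median over the 9 partners was -0.01 in KO2 against Vector, 0.37 in KO1 against Vector and -0.31 in KO2 against KO1.

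Glutathione synthesis starts with glutamate-cysteine ligase, whose catalytic subunit GCLC and modifier subunit GCLM went different ways in KO1. GCLC (minus strand of chromosome 6, 53497341 to 53616970) had 3.68, 3.49 and 3.68 FPKM in KO2, 4.41, 4.05 and 4.41 FPKM in KO1 and 6.04, 5.84 and 4.73 FPKM in Vector. Both knockout lines lay below every Vector library and KO2 lay below KO1. GCLC fell by 0.50 on the log2 scale in KO2 (SE 0.10, limma adjusted p = 0.0069) and fell by 0.30 in KO1 (SE 0.10, limma adjusted p = 0.0485), while KO2 against KO1 gave -0.20 (limma adjusted p = 0.179).

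Genes around GCLC were lower in KO2 as well. The median over the 25 fitted genes within 5 Mb was -0.44 in KO2 against Vector, -0.08 in KO1 against Vector and -0.35 in KO2 against KO1. With the neighbours' median subtracted, GCLC differed by -0.06 in KO2 against Vector (limma adjusted p = 0.727), and its call in KO1 against Vector was lost as well. The KO1 call was the weaker one: it was lost on leaving out any single library other than Vector library 3 and KO2 library 3, with limma adjusted p values up to 0.162, without KO1 library 2.

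GCLM (minus strand of chromosome 1, 93885205 to 93909456) had 6.77, 7.59 and 8.18 FPKM in KO2, 15.6, 16.2 and 14.6 FPKM in KO1 and 8.40, 8.69 and 6.64 FPKM in Vector. The KO1 libraries lay above all others, while KO2 and Vector overlapped. GCLM rose in KO1 by 0.89 on the log2 scale against Vector (SE 0.12, limma adjusted p = 0.00049), a fold of 1.86 on the FPKM + 1 scale, and the KO2 minus KO1 difference was -0.96 (limma adjusted p = 0.000409). In KO2 against Vector the difference was -0.06 (limma adjusted p = 0.737, 95% interval -0.33 to 0.20). The median of its 60 neighbours was 0.13 in KO2 against Vector and 0.12 in KO1 against Vector, and both calls of GCLM held in all 22 alternative settings, with values of 0.78 to 1.02 in KO1 against Vector. No other gene shares exon bases with GCLM, and 1339 to 1425 reads lay behind the KO1 values.

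Of the 12 other genes of glutathione use and recycling, 10 could be fitted, of which 1 was higher and 3 were lower in KO2 against Vector, 3 higher and 2 lower in KO1 against Vector, and 1 higher and 5 lower in KO2 against KO1. SLC3A2, the heavy chain of the cystine-glutamate exchanger, had 28.1, 28.1 and 18.8 FPKM in KO2, 108, 96.8 and 93.1 FPKM in KO1 and 37.5, 32.8 and 52.0 FPKM in Vector. It fell by 0.68 on the log2 scale in KO2 against Vector (limma adjusted p = 0.0305), a call kept in 15 of 22 alternative settings, and rose in KO1 by 1.28 against Vector (limma adjusted p = 0.0012). The KO2 call was lost without Vector library 1 (limma adjusted p = 0.0619), Vector library 3 (limma adjusted p = 0.0558) or KO2 library 3 (limma adjusted p = 0.0737).

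SLC7A11, the light chain that carries cystine and itself an NRF2 target, had 8.73, 9.61 and 11.8 FPKM in KO2, 28.1, 30.1 and 31.2 FPKM in KO1 and 12.3, 12.6 and 8.64 FPKM in Vector. It rose in KO1 by 1.35 against Vector (limma adjusted p = 0.000208), and KO2 overlapped Vector. Both chains are also targets of ATF4, the factor of the amino acid response, and their calls in KO1 held in all 22 alternative settings. CHAC1, which degrades glutathione and is a target of ATF4 as well, gave -0.78 in KO2 against KO1 (limma adjusted p = 0.024), lost without KO2 library 3 or any 1 KO1 library, with limma adjusted p values up to 0.0853, without KO1 library 1.

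GSS, the glutathione synthetase that acts after glutamate-cysteine ligase, had 14.6, 14.4 and 13.3 FPKM in KO2, 19.5, 18.0 and 18.2 FPKM in KO1 and 19.2, 17.5 and 19.4 FPKM in Vector. It fell by 0.38 on the log2 scale in KO2 against Vector (limma adjusted p = 0.0133, or 0.0691 in a fit of these 2 groups alone), and its KO1 difference from Vector was -0.01 (limma adjusted p = 0.952). GSR, the reductase that recycles glutathione, averaged 17.7 ± 1.65 FPKM in KO2, 17.0 ± 1.25 FPKM in KO1 and 17.3 ± 1.99 FPKM in Vector (SD, n = 3 each). It differed from Vector by 0.04 in KO2 (95% interval -0.23 to 0.30) and by -0.02 in KO1 (95% interval -0.28 to 0.24).

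Among the glutathione transferases, GSTP1 had 118, 109 and 102 FPKM in KO2, 87.7, 81.3 and 72.6 FPKM in KO1 and 56.0, 45.8 and 68.1 FPKM in Vector. It was higher in both knockout lines, by 0.96 in KO2 (limma adjusted p = 0.0017) and by 0.51 in KO1 (limma adjusted p = 0.0269). The KO1 call was lost without Vector library 1, Vector library 2, KO1 library 1 or KO1 library 2, with limma adjusted p values up to 0.101, without KO1 library 1, and it was 0.33 with neighbours' medians subtracted (limma adjusted p = 0.147). GSTM3, one of a family of close copies among which reads may be shared, had 1.07, 0.999 and 0.962 FPKM in KO2, 0.0132, 0.0518 and 0.0747 FPKM in KO1 and 2.85, 2.28 and 2.50 FPKM in Vector. It fell by 0.81 in KO2 (limma adjusted p = 0.000619) and fell by 1.76 in KO1 (limma adjusted p = 4.66e-06), a scale that understates the change of so low a gene. GLRX, a glutaredoxin, fell by 0.76 in KO1 (limma adjusted p = 0.0028).

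TXNRD1 was the only one of the 9 genes called higher in KO2 against Vector. TXNRD1 (plus strand of chromosome 12, 104215779 to 104350305), the cytosolic selenoenzyme that reduces thioredoxin with NADPH, had 109, 109 and 90.8 FPKM in KO2, 48.9, 51.7 and 51.8 FPKM in KO1 and 60.6, 60.3 and 52.1 FPKM in Vector. Every KO2 library lay above every other library, and the KO1 libraries lay just below the lowest Vector library. TXNRD1 rose in KO2 by 0.82 on the log2 scale against Vector (SE 0.11, limma adjusted p = 0.000808), a fold of 1.77, and was higher in KO2 than in KO1 by 1.001 (SE 0.11, limma adjusted p = 0.000248). In KO1 against Vector it differed by -0.18 (limma adjusted p = 0.258, 95% interval -0.43 to 0.08).

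The 58 neighbours of TXNRD1 had medians of -0.13 in KO2 against Vector and -0.36 in KO1 against Vector. Both KO2 calls held in all 22 alternative settings, with 0.75 to 0.95 in KO2 against Vector. Between 9859 and 13103 reads lay behind each KO2 value, the deepest coverage of the 9 genes, and no other gene shares its exon bases.

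TXN, the thioredoxin that TXNRD1 reduces, had 115, 118 and 96.4 FPKM in KO2, 183, 166 and 162 FPKM in KO1 and 202, 166 and 124 FPKM in Vector. The KO2 libraries lay below all others. It fell by 0.55 in KO2 against Vector (limma adjusted p = 0.0428), a call kept in 10 of 22 alternative settings, and the difference was -0.63 in KO2 against KO1 (limma adjusted p = 0.0226). The call against Vector was lost on leaving out any single library other than Vector library 3, with limma adjusted p values up to 0.132, without Vector library 1, and it was -0.31 with neighbours' medians subtracted (limma adjusted p = 0.242). The call against KO1 was lost without KO2 library 3 or any 1 KO1 library, with limma adjusted p values up to 0.083, without KO1 library 1.

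Of the 12 genes of the thioredoxin and peroxiredoxin list 10 could be fitted. Among these 0 were higher and 4 lower in KO2 against Vector, 1 higher and 3 lower in KO1 against Vector, and 2 higher and 2 lower in KO2 against KO1. SESN2, a stress-induced sestrin that promotes the breakdown of KEAP1 and also answers to ATF4, had 20.2, 20.7 and 22.1 FPKM in KO2, 107, 112 and 105 FPKM in KO1 and 35.4, 33.9 and 52.6 FPKM in Vector. It fell by 0.89 in KO2 (limma adjusted p = 0.003) and rose by 1.41 in KO1 (limma adjusted p = 0.000173), with no overlap between any of the groups.

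TXNRD3, a reductase best known from testis, had 3.85, 3.94 and 5.16 FPKM in KO2, 1.18, 0.969 and 1.10 FPKM in KO1 and 3.94, 4.98 and 4.48 FPKM in Vector, a log2 difference of -1.39 in KO1 (limma adjusted p = 4.63e-05). PRDX3 and PRDX4, the mitochondrial and the endoplasmic reticulum peroxiredoxin, fell by 0.67 and 0.66 in KO2 (limma adjusted p = 0.02 for PRDX3), and PRDX4 fell by 0.53 in KO1 (limma adjusted p = 0.0056). The PRDX3 call was lost without Vector library 1 (limma adjusted p = 0.0733) or Vector library 2 (limma adjusted p = 0.062). With neighbours' medians subtracted, PRDX3 differed by -0.37 in KO2 (limma adjusted p = 0.162), PRDX4 by -0.33 in KO1 (limma adjusted p = 0.0517) and TXN2 by -0.23 in KO1 (limma adjusted p = 0.17). TXN2, the mitochondrial thioredoxin, fell by 0.40 in KO1, a call lost without Vector library 1 or 2 or KO1 library 2 or 3, with limma adjusted p values up to 0.104, without KO1 library 2. PRDX2 was listed at or below 0.207 FPKM, GPX1 at or below 0.301 FPKM and TXNIP at 0 in every library. Most cells use these genes, so their listed values may not give their levels.

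SRXN1 (minus strand of chromosome 20, 646615 to 653370), the sulfiredoxin that repairs over-oxidised peroxiredoxins, was the lowest of the 9 genes. It had 1.24, 1.12 and 0.733 FPKM in KO2, 1.93, 2.44 and 1.78 FPKM in KO1 and 0.540, 0.635 and 2.24 FPKM in Vector, from 24 to 107 reads a library. The KO2 libraries lay below all KO1 libraries, and Vector library 3 stood above the other Vector libraries and within the range of KO1. The log2 difference was 0.00 in KO2 against Vector (limma adjusted p = 0.995), 0.59 in KO1 against Vector (limma adjusted p = 0.109) and -0.59 in KO2 against KO1 (limma adjusted p = 0.119). Without Vector library 3 it was 0.35 in KO2 against Vector (limma adjusted p = 0.101), 0.94 in KO1 against Vector (limma adjusted p = 0.0017) and -0.59 in KO2 against KO1 (limma adjusted p = 0.0093). Another gene on the same strand, AL121758.1, shares 2292 of its 2698 exon bases, so its reads could have been split or dropped.

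The quinone and haem enzymes moved in opposite directions in KO1. NQO1 (minus strand of chromosome 16, 69706996 to 69726951), the quinone reductase that is the usual readout of NRF2, had 55.1, 52.6 and 50.1 FPKM in KO2, 72.0, 65.3 and 62.7 FPKM in KO1 and 52.2, 45.1 and 47.0 FPKM in Vector. The KO1 libraries lay above all others, and KO2 overlapped Vector. It rose in KO1 by 0.46 on the log2 scale against Vector (SE 0.10, limma adjusted p = 0.008), and the KO2 minus KO1 difference was -0.34 (limma adjusted p = 0.0345). In KO2 against Vector it differed by 0.13 (limma adjusted p = 0.394, 95% interval -0.10 to 0.36). That difference was called at 0.27 with GC and length trends removed (limma adjusted p = 0.0122) and at 0.20 with library weights (limma adjusted p = 0.0172).

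The KO1 call of NQO1 was kept without any single library. With the median of its 123 neighbours subtracted, which was 0.17 in KO1, it was 0.30 (limma adjusted p = 0.0628). The difference between KO2 and KO1 was less firm. It was lost on leaving out any 1 of the 6 libraries of KO2 and KO1, with limma adjusted p values up to 0.145, without KO1 library 1, and it was -0.22 with every library scaled to the same total FPKM (limma adjusted p = 0.141).

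HMOX1 (plus strand of chromosome 22, 35380361 to 35394214), the haem oxygenase that is also held down by BACH1, had 9.96, 9.19 and 7.09 FPKM in KO2, 7.71, 6.95 and 7.13 FPKM in KO1 and 10.8, 8.82 and 15.2 FPKM in Vector. The KO1 libraries lay below every Vector library, and Vector library 3 was the highest of the 9. HMOX1 fell by 0.58 in KO1 against Vector (SE 0.18, limma adjusted p = 0.0365), opposite in direction to GCLM and NQO1 in the same line. Without Vector library 3 the difference was -0.38 (limma adjusted p = 0.0608), and the call was also lost without Vector library 1, any 1 KO1 library or KO2 library 2, with limma adjusted p values up to 0.105. Subtracting the median of its 109 neighbours, which was -0.19 in KO1 against Vector, ended this call too. In KO2 against Vector the difference was -0.35 (limma adjusted p = 0.186). BACH1 averaged 14.7 ± 2.55 FPKM in KO2, 18.2 ± 0.767 FPKM in KO1 and 14.7 ± 2.08 FPKM in Vector (SD, n = 3 each). Its log2 difference was 0.30 in KO1 against Vector (limma adjusted p = 0.132), not called. In KO2 against Vector it was -0.01 (limma adjusted p = 0.965). The KO1 difference of BACH1 was called higher in 4 of 22 alternative settings. Whether BACH1 has a part in the fall of HMOX1 was not tested.

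**Figure D3:**
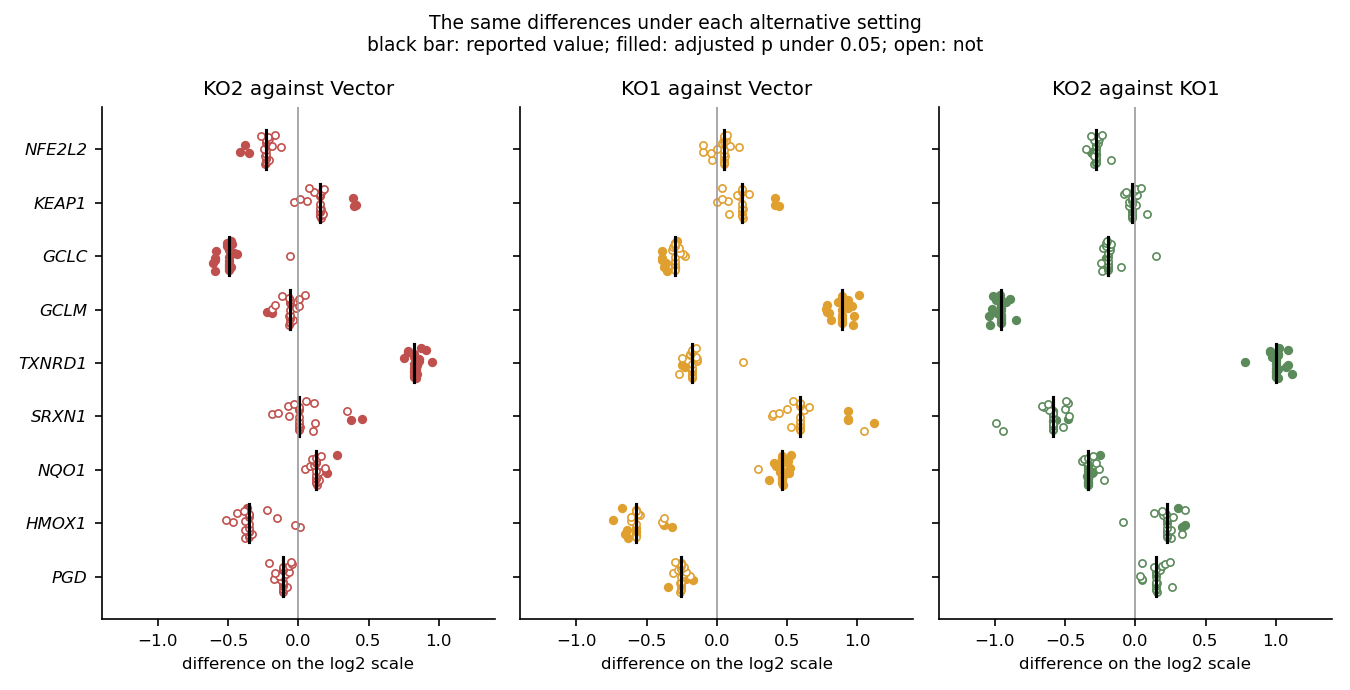
Log2 difference of each gene (horizontal axis) under 22 alternative settings, with the reported value as a black bar. Filled points have an adjusted p under 0.05. The points of GCLM in KO1 and of TXNRD1 in KO2 stay filled and close to the bar, those of KEAP1 and SRXN1 spread, and single points of GCLC and TXNRD1 lie apart where the median of neighbouring genes is subtracted.

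Other NRF2 targets moved in both directions in each line. Of 27 genes 19 could be fitted, of which 3 were higher and 7 lower in KO2 against Vector, 4 higher and 7 lower in KO1 against Vector, and 7 higher and 5 lower in KO2 against KO1. Their medians were -0.24, -0.12 and 0.10 in these comparisons, in which 27.9%, 34.1% and 30.9% of all genes were called. AKR1B10 and AKR1C1, among the strongest NRF2 targets in human cells, were listed at no more than 0.0339 and 0.395 FPKM and did not pass the filter on low values. With no filter, AKR1C1 was called lower by 0.25 in KO2 (limma adjusted p = 0.0137) and by 0.33 in KO1 (limma adjusted p = 0.0035), from values near 0. AKR1B10 was not called there. AKR1C2, of the same family, averaged 0.604 FPKM and passed the filter. It was called lower by 0.41 in KO2 (limma adjusted p = 0.0307), kept in 11 of 21 alternative settings. In KO1 it was called lower by 0.51 (limma adjusted p = 0.0099), kept in 21 of 21.

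BLVRB, the biliverdin reductase B downstream of haem oxygenases, had 26.7, 22.9 and 20.3 FPKM in KO2, 22.8, 21.9 and 19.6 FPKM in KO1 and 45.9, 40.1 and 71.8 FPKM in Vector. It fell by 1.10 in KO2 (limma adjusted p = 0.0036) and fell by 1.21 in KO1 (limma adjusted p = 0.0017). The median of its 254 neighbours was -0.48 in KO2 and -0.41 in KO1. With it subtracted, BLVRB differed by -0.63 in KO2 (limma adjusted p = 0.0523), no longer called, and by -0.80 in KO1 (limma adjusted p = 0.0174). SLC48A1, a haem transporter, and OSGIN1, an oxidative stress growth inhibitor, were also lower in both, with differences of -1.04 for SLC48A1 in KO1 (limma adjusted p = 0.00034) and -0.77 for OSGIN1 in KO2 (limma adjusted p = 0.0156). The OSGIN1 difference in KO2 was -0.50 with its neighbours' median subtracted (limma adjusted p = 0.0881).

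FTL, the ferritin light chain, had 1229, 1168 and 1105 FPKM in KO2, 1936, 1718 and 1672 FPKM in KO1 and 1057, 892 and 1015 FPKM in Vector. It rose in KO1, by 0.85 against Vector (limma adjusted p = 0.0012, or 0.0547 with no filter on low values), and all KO1 libraries lay above the others. FTL has processed copies in the genome, so some reads may be shared. EPHX1, the microsomal epoxide hydrolase, had 11.6, 10.7 and 8.57 FPKM in KO2, 5.82, 4.14 and 4.15 FPKM in KO1 and 4.41, 3.96 and 5.38 FPKM in Vector, a rise of 1.01 in KO2 (limma adjusted p = 0.0017). ABCC3, a conjugate exporter, rose in KO2 as well, by 0.83 (limma adjusted p = 0.000787). ABCC1, the related exporter of glutathione conjugates, gave -0.94 in KO2 against KO1 (limma adjusted p = 0.0009). Against Vector, ABCC1 rose by 0.63 in KO1 (limma adjusted p = 0.0066) and differed by -0.31 in KO2 (limma adjusted p = 0.117), not called. ME1, the cytosolic malic enzyme that makes NADPH, was higher in KO2 than in KO1 by 1.44 (limma adjusted p = 0.000288).

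**Figure D4:**
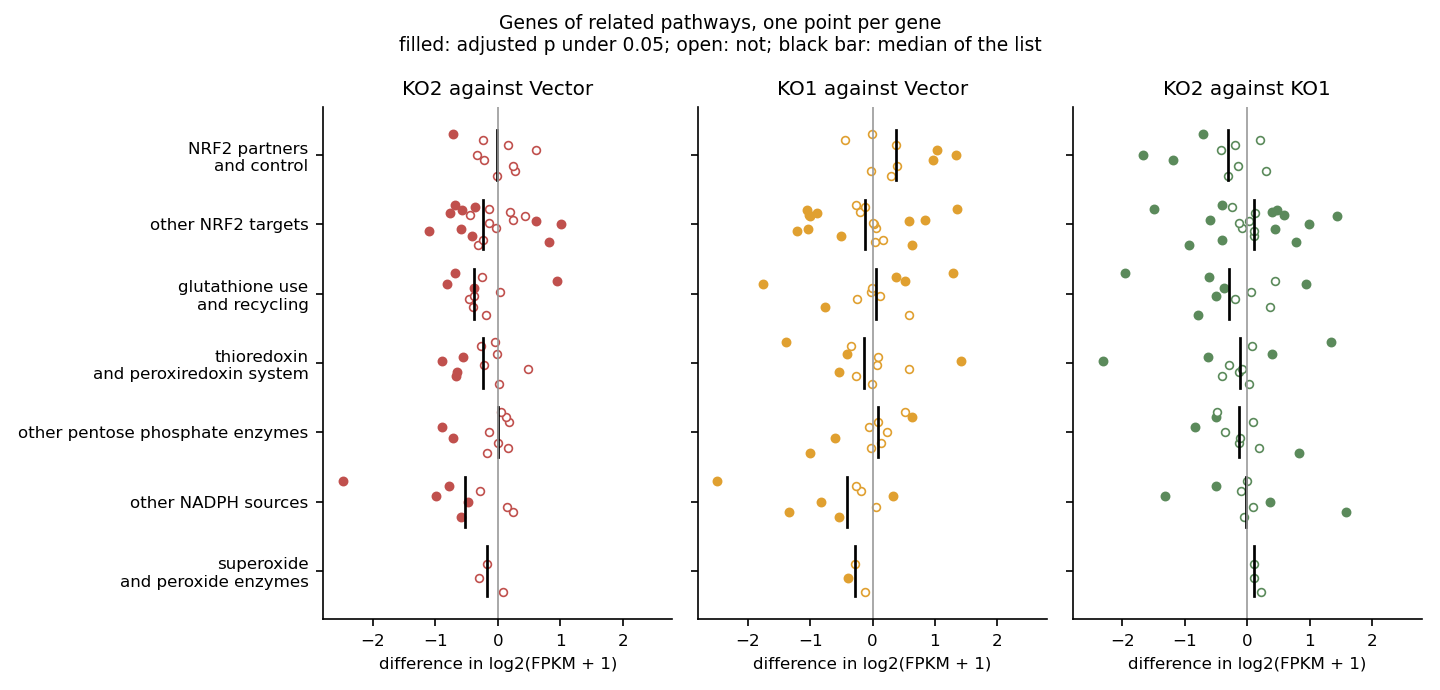
Difference in log2(FPKM + 1) (horizontal axis) of each fitted gene in 7 related lists, for the 3 comparisons, with the list's median as a black bar. Filled points have an adjusted p under 0.05. The other NRF2 targets and the glutathione list hold called genes on both sides of 0 in each comparison, and the point farthest left in both comparisons with Vector is NNT.

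PGD (plus strand of chromosome 1, 10398592 to 10420144), which makes the second NADPH of the oxidative branch, had 54.3, 52.3 and 66.1 FPKM in KO2, 53.2, 51.3 and 50.1 FPKM in KO1 and 63.5, 56.9 and 65.1 FPKM in Vector. The KO1 libraries lay below all Vector libraries, and KO2 library 3 was the highest of the 9. The log2 difference was -0.11 in KO2 against Vector (limma adjusted p = 0.528, 95% interval -0.36 to 0.15), -0.26 in KO1 against Vector (limma adjusted p = 0.114, 95% interval -0.51 to 0.00) and 0.15 in KO2 against KO1 (limma adjusted p = 0.358). In KO1 against Vector it was called without KO2 library 3, at the same -0.26 (limma adjusted p = 0.0382). A processed copy, PGDP1, is named in the annotation, so some reads may be shared.

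PGLS, the lactonase that acts just before PGD, averaged 23.6 ± 2.38 FPKM in KO2, 20.7 ± 1.81 FPKM in KO1 and 21.4 ± 5.97 FPKM in Vector (SD, n = 3 each), and RPE, the epimerase after PGD, 18.6 ± 1.43 FPKM in KO2, 24.2 ± 0.751 FPKM in KO1 and 20.8 ± 3.76 FPKM in Vector. Neither PGLS nor RPE passed the test in any comparison.

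Of the 9 other pentose phosphate enzymes counted, all fitted, 0 were higher and 2 lower in KO2 against Vector, 1 was higher and 2 lower in KO1 against Vector, and 1 was higher and 2 lower in KO2 against KO1. RPIA, the ribose 5-phosphate isomerase, had 7.99, 8.09 and 3.88 FPKM in KO2, 12.3, 11.7 and 12.5 FPKM in KO1 and 13.4, 11.1 and 13.9 FPKM in Vector, a log2 difference of -0.90 in KO2 (limma adjusted p = 0.015). KO2 library 3, which stood apart, held the lowest value, and the call was lost without Vector library 1 (limma adjusted p = 0.052). TALDO1, the transaldolase of the non-oxidative branch, rose in KO1 by 0.63 (limma adjusted p = 0.002), with 27.7, 27.0 and 29.5 FPKM in KO2, 42.7, 38.2 and 38.9 FPKM in KO1 and 25.5, 22.6 and 28.3 FPKM in Vector. With the median of its 76 neighbours subtracted, which was 0.32 in KO1, the difference was 0.32 (limma adjusted p = 0.058). H6PD, which runs the first steps inside the endoplasmic reticulum, fell by 1.005 in KO1 (limma adjusted p = 0.000784), with 10.99, 10.5 and 11.3 FPKM in KO2, 5.40, 5.94 and 5.67 FPKM in KO1 and 10.5, 11.2 and 16.1 FPKM in Vector. PRPS2, which uses ribose 5-phosphate for nucleotides, fell by 0.72 in KO2 (limma adjusted p = 0.0109) and fell by 0.60 in KO1 (limma adjusted p = 0.0191), the KO1 call being lost without Vector library 1, KO1 library 1 or KO1 library 3, with limma adjusted p values up to 0.07, without KO1 library 3. The KO1 difference was -0.46 with neighbours' medians subtracted (limma adjusted p = 0.0688).

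**Figure D5:**
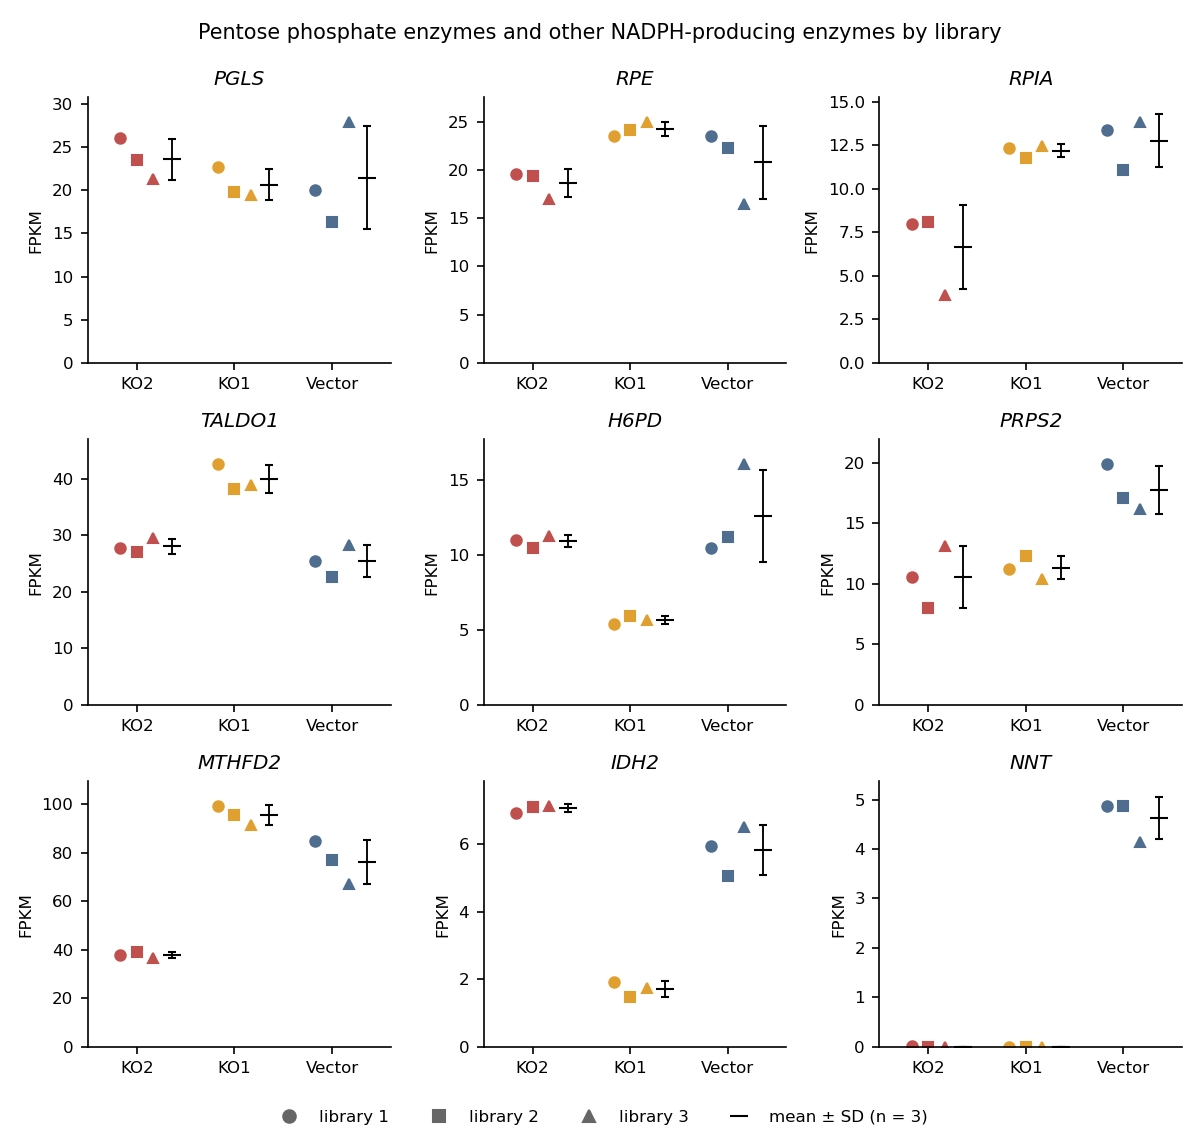
FPKM (vertical axis, from 0) of pentose phosphate enzymes and other NADPH-producing enzymes in the 3 libraries of KO2, KO1 and Vector, with mean and SD (n = 3). NNT is at or near 0 in all 6 knockout libraries, IDH2 is low in KO1 and MTHFD2 is low in KO2.

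The widest differences among NADPH sources lay outside the pentose phosphate pathway. Of 9 such genes 8 could be fitted, of which 0 were higher and 5 lower in KO2 against Vector, 1 higher and 4 lower in KO1 against Vector, and 2 higher and 2 lower in KO2 against KO1. Over all genes 27.9%, 34.1% and 30.9% were called in these comparisons. NNT, the mitochondrial transhydrogenase that makes NADPH from NADH, had 0.0069, 0 and 0 FPKM in KO2, 0 FPKM in all 3 KO1 libraries and 4.87, 4.88 and 4.13 FPKM in Vector. The reads were 1, 0 and 0 in KO2, 0 in each KO1 library and 661, 681 and 599 in Vector. Against a floor of 3 reads per library, NNT was at least 208-fold lower in KO1 than in Vector, counting error only. It was called lower in both lines in all 22 alternative settings, and the median of its 37 neighbours was -0.16 in KO2 and 0.01 in KO1.

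IDH2, the mitochondrial isocitrate dehydrogenase, had 6.92, 7.10 and 7.13 FPKM in KO2, 1.92, 1.46 and 1.75 FPKM in KO1 and 5.94, 5.04 and 6.51 FPKM in Vector, a log2 difference of -1.33 in KO1 (limma adjusted p = 2.82e-05). MTHFD2, the mitochondrial folate dehydrogenase and a target of ATF4, had 38.0, 39.0 and 36.5 FPKM in KO2, 99.5, 95.6 and 91.6 FPKM in KO1 and 85.1, 77.1 and 67.0 FPKM in Vector. It fell by 0.99 in KO2 (limma adjusted p = 0.000236) and rose by 0.33 in KO1 (limma adjusted p = 0.0454), and the KO1 call was kept in 10 of 22 alternative settings. It was lost without Vector library 2, KO2 library 1 or 2, or any 1 KO1 library, with limma adjusted p values up to 0.148, without KO1 library 1. MTHFD1 and NADK2, 2 further enzymes of NADPH supply, gave -0.47 and -0.78 in KO2 against Vector, both called, the MTHFD1 call being lost without KO2 library 1 (limma adjusted p = 0.0506) or KO2 library 2 (limma adjusted p = 0.0514). In KO1 against Vector MTHFD1 fell by 0.83 (limma adjusted p = 0.000493), called in 21 of 22 alternative settings. It was higher in KO2 than in KO1 by 0.36 (limma adjusted p = 0.0341), called in 15 of 22. With neighbours' medians subtracted MTHFD1 differed by -0.30 in KO2 against Vector (limma adjusted p = 0.0858). Under that setting it differed by -0.27 in KO1 against Vector (limma adjusted p = 0.104). Among superoxide and peroxide enzymes, 3 of 4 genes could be fitted, and SOD1 fell by 0.40 in KO1 (limma adjusted p = 0.0275) with no other call. The SOD1 call was lost without Vector library 1 or 2 or any 1 KO1 library, with limma adjusted p values up to 0.115, without KO1 library 3, and it was -0.05 with neighbours' medians subtracted (limma adjusted p = 0.783).

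Per length, TXNRD1 in KO2 had the highest group mean of the 9 genes, 103 ± 10.6 FPKM (SD, n = 3). The libraries of KO2 and Vector did not overlap for 2 of the 9 genes, TXNRD1 higher and GCLC lower, where 39% of all genes did not overlap. Those of KO1 and Vector did not overlap for 6, GCLM and NQO1 higher and HMOX1, GCLC, TXNRD1 and PGD lower, where 50.1% of all genes did not. Those of KO2 and KO1 did not overlap for 6, TXNRD1 higher and NFE2L2, NQO1, GCLC, GCLM and SRXN1 lower, where 53.6% of all genes did not.

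The genes whose profiles were most like those of the 3 genes with the widest range were sought among 6916 other protein-coding genes averaging 5 FPKM or more (6917 for SRXN1), by the root-mean-square difference of centred log2 values over the 9 libraries. For TXNRD1 these were SAV1 at 0.0847 and F2RL1 at 0.0885. For GCLM they were SGMS2 at 0.0745 and LRRFIP2 at 0.0768. For SRXN1 they were SYDE1 at 0.105 and MIDN at 0.124. These likenesses are descriptions over 9 libraries in 3 groups.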

How the data were processed

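The authors deposited 1 table of FPKM values per gene for the 9 libraries. The submitters' processing notes name the build hg38 and the tools featureCounts 1.5.0-p3, HISAT2 2.0.5 and CASAVA 1.6. Their order and options, the strand setting and the handling of overlapping genes were not given in the sources used here. FPKM times exon length (GENCODE 29) gave whole reads for 100.0% of values within 0.02 reads, so depth was known, 16002212 to 17090445 reads per library. The floor on reads covers counting error only, while the 95% intervals rest on the spread between libraries.

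Values were taken as log2(FPKM + 1), and the 16426 genes averaging 0.5 FPKM or more were fitted across all genes with limma 3.58.1 (R 4.3.3, trended empirical Bayes, all 9 libraries in 1 fit, group as the only term), with Benjamini-Hochberg adjustment over all of them. This scale understates the change of low genes. The fit was also run on simulated reads with the same spread for all genes and no library standing apart. That setting differs from these data, so the run does not show how the fit behaves on them. Neighbours are fitted genes within 5 Mb on each side.

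The members and gene lists were chosen with earlier results of these data known. A gene of the pentose phosphate list is not reported here and was left out of its counts. Named are the 9 genes, per list and comparison up to 2 called genes with the largest rise and 2 with the largest fall, and the direct neighbours of a member in its reaction, besides BCKDK. MAFF in KO1, BACH1, AKR1B10, AKR1C1, AKR1C2, PRDX2, GPX1, TXNIP, and some second calls of named genes were added after their values were seen. Alternatives were another pseudocount, 2 filters, 2 scalings, limma without the trend, limma-voom on the recovered reads, fits of 2 groups alone, library weights, omission of libraries, a replicate block, subtraction of the neighbours' medians and, chosen after seeing the data, removal of GC and length trends. For all genes the promoter motifs were counted by letters alone.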

Additional observations from a re-analysis of the deposited data

Results flagged for a closer look

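For 3 of the genes the effect of the knockout line differed between KO2 and KO1 by a test of the difference itself, the limma comparison of KO2 against KO1, which holds the Vector libraries out of the difference. GCLM differed by -0.955 on the log2 scale (SE 0.118, adjusted p = 0.000409, limma), with all 3 KO2 libraries below all 3 KO1 libraries. TXNRD1 differed by 1.001 (SE 0.113, adjusted p = 0.000248, limma), with all 3 KO2 libraries above all 3 KO1 libraries. NQO1 differed by -0.336 (SE 0.103, adjusted p = 0.0345, limma), with all 3 KO2 libraries below all 3 KO1 libraries.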

How the results depend on the processing

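GCLM and TXNRD1 kept the direction and side of the threshold of their 4 called differences in all 13 other settings and on leaving out each of the 9 libraries. Of the 594 alternatives of single genes, 501 kept direction and side, 40 became called, 31 were no longer called and 22 turned direction, none of these a called result.

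The count of genes called in KO2 against Vector was 2. It was 7 with library weights, 6 without Vector library 3 and KO2 library 3, 4 with GC and length trends removed, 1 with neighbours' medians subtracted, and 2 to 4 on leaving out 1 library, the 4 without Vector library 3. In KO1 against Vector it was 4, against 8 with library weights, 8 without both libraries, 2 with no filter, 1 with neighbours' medians subtracted and 2 to 5 on leaving out 1 library, with 2 without Vector library 1, KO2 library 2 or any KO1 library. In KO2 against KO1 it was 3, against 5 with 2 groups alone, 7 with library weights, 7 without both libraries and 2 to 6 on leaving out 1 library, the 6 without Vector library 3. Calls over all genes changed too. Of 16426 genes, library weights called 5024 higher and 5037 lower in KO2 against Vector. They called 5590 and 5189 in KO1 against Vector and 4551 and 5213 in KO2 against KO1. Without both libraries, KO2 against Vector had 3941 and 4149 of 16283. KO1 against Vector then had 4860 and 4418, and KO2 against KO1 had 3485 and 4302. KO2 against Vector had 3304 and 3330 with GC and length trends removed and 1819 and 1817 with neighbours' medians subtracted. KO1 against Vector had 1990 and 2184 with neighbours' medians subtracted, 2620 and 3082 of 35603 with no filter, and 1864 and 1942 of 16520 without KO1 library 1. With 2 groups alone, KO2 against KO1 had 2836 and 3469 of 16237. Without Vector library 3, of 16375 genes, KO2 against Vector had 3098 and 3389, and KO2 against KO1 had 3057 and 3676. The cause was not tested. Besides the genes named with such values above, library weights called GCLM at -0.19 in KO2 against Vector, TXNRD1 at -0.23 and PGD at -0.17 in KO1 against Vector, and HMOX1 at 0.34 and GCLC at -0.20 in KO2 against KO1. SRXN1 was called at 0.37 in KO2 against Vector with library weights and at 1.12 in KO1 against Vector by limma-voom. HMOX1 was called at -0.37 in KO2 against Vector with GC and length trends removed, and PGD at -0.35 in KO1 against Vector at the same total FPKM.

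Same-numbered libraries correlated at -0.0766, -0.0897 and -0.202 in KO2 against Vector, and at -0.0083, 0.0062 and -0.132 in KO1 against Vector. In KO2 against KO1 they correlated at 0.142, -0.0405 and 0.102. Differently numbered libraries gave -0.26 to 0.25, -0.167 to 0.164 and -0.137 to 0.0498 in the same order of comparisons. Such correlations of deviations from group means cannot show whether the replicate numbers pair the libraries. With a replicate block the counts were 2, 2 and 3 in these comparisons.

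Direction turned, without a call, as follows. With neighbours' medians subtracted, the difference was -0.0328 for KEAP1 and -0.0639 for SRXN1 in KO2 against Vector, 0.187 for TXNRD1 in KO1 against Vector, and -0.0854 for HMOX1 and 0.149 for GCLC in KO2 against KO1. With library weights it was 0.0151 for HMOX1 in KO2 against Vector and -0.0427 for NFE2L2 in KO1 against Vector. With GC and length trends removed it was 0.0506 for GCLM in KO2 against Vector and 0.0389 for KEAP1 in KO2 against KO1. At the same total FPKM it was -0.0367 for NFE2L2 in KO1 against Vector and 0.0854 for KEAP1 in KO2 against KO1, and without both libraries it was -0.0993 and 0.0026. Leaving out 1 library gave -0.168 to 0.0038 for GCLM and -0.189 to 0.346 for SRXN1 in KO2 against Vector, -0.0993 to 0.158 for NFE2L2 in KO1 against Vector and -0.0785 to 0.0092 for KEAP1 in KO2 against KO1.

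Depth limits SRXN1 most, with 24 to 107 reads a library. With 3 libraries a group, the 95% intervals of the 9 genes reach 0.23 to 0.59 on either side of a log2 difference. An exact permutation test of 3 against 3 cannot go below p = 0.1.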
